A study of Mus musculus with 135 samples.

Results

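Single ovulated oocytes of young mice labelled Tet2 knockout and wild type were compared. The oocytes are 40 of the 133 listed for the series (135 samples in all), and 94 of those 133 could be matched to a column of counts. They were chosen as every young oocyte of either genotype whose title begins with T: 16 labelled Tet2-/- (written Tet2KO here) in sets T213 and T214, and 24 labelled WT, wild type, in sets T148, T211 and T231. Each set holds 8 oocytes with a common title stem. All were arrested at metaphase of meiosis II (MII), came from mice of mixed C57BL6/129 background aged 2 to 4 months, and differ by label in the Tet2 genotype alone. No label says which mouse gave which set, so the p-values below describe the spread between sets, which may be technical. Nor do the labels say which part of Tet2 was deleted, or whether the deletion was present in all cells or in the germline alone.

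TET2 is 1 of the mammalian dioxygenases that oxidise 5-methylcytosine in DNA, using 2-oxoglutarate, iron and oxygen, and so take part in the removal of DNA methylation. Growing oocytes gain most of their DNA methylation before ovulation, with the de novo methyltransferase DNMT3A and its cofactor DNMT3L. An ovulated oocyte no longer transcribes, and its RNA is the store laid down during growth, part of which is translated or degraded during maturation. TET3 is the member of the family best known in the oocyte, where its protein acts on the paternal genome after fertilisation.

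The counts matched the labelled cell type. All 13 oocyte markers were found in both genotypes, at a summed level of 18363 to 28414 CPM, counts scaled to a common library total, in WT and 15886 to 25814 in Tet2KO. Markers of granulosa cells (26 genes) summed to 65.5 to 131.8 CPM in WT and 62.05 to 116.4 in Tet2KO, with Amh and Fshr at 0 in all 40 oocytes. Those of macrophages and other leukocytes (13 genes) summed to 19.4 to 40.9 and 15.8 to 38.9 CPM, with Ptprc and C1qa at 0 in Tet2KO and Tyrobp and Fcer1g at 0 in WT. Markers of stroma, theca and oviduct (14 genes) summed to 94.3 to 166.7 and 92.7 to 210 CPM, and those of red blood cells (7 genes) to at most 1.43 and 1.88 CPM. Total counts per oocyte ran from 3303999 to 6374555 in Tet2KO (median 3903834) and from 2354503 to 5044746 in WT (median 3073089). WT set T148 stood apart on the principal component that took 23.02% of the variance of the 2000 most variable genes. Its oocytes lay between 24.8 and 37.8 there, and the other 32 oocytes between -18.7 and 6.36. Other sets were apart on later components: T214 on component 2 (13.96% of the variance), WT set T231 on component 3 (12.2%) and T213 on component 4 (6.30%).

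The question asked of these groups is which stored transcripts differ between oocytes labelled Tet2-/- and WT. Between Tet2KO and WT, 6 of 13455 genes tested passed (0.0446%), 5 higher (0.0372%) and 1 lower (0.00743%), at a Benjamini-Hochberg adjusted p under 0.05 in edgeR's quasi-likelihood test on the summed counts of each set. Pnpla3, Gm49513, E330021D16Rik, Sept3 and Vrk2 rose, and Gm18860 fell. In these 6 genes every Tet2KO oocyte lay outside the range of the 24 WT oocytes. At an unadjusted p under 0.05 the test held 945 genes (7.02%), 557 higher (4.14%) and 388 lower (2.88%), and the median log2 change over all tested genes was 0.00. DESeq2 on the same sums called 42 genes (0.312%) and limma on single oocytes 448 (3.33%), these 6 among them in each case. That limma fit takes oocytes as replicates, although oocytes of 1 set are not independent, so its calls are given as description alone. Without set T148 the count was 11, and Sept3 and Vrk2 were no longer among them.

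**Figure D1:**
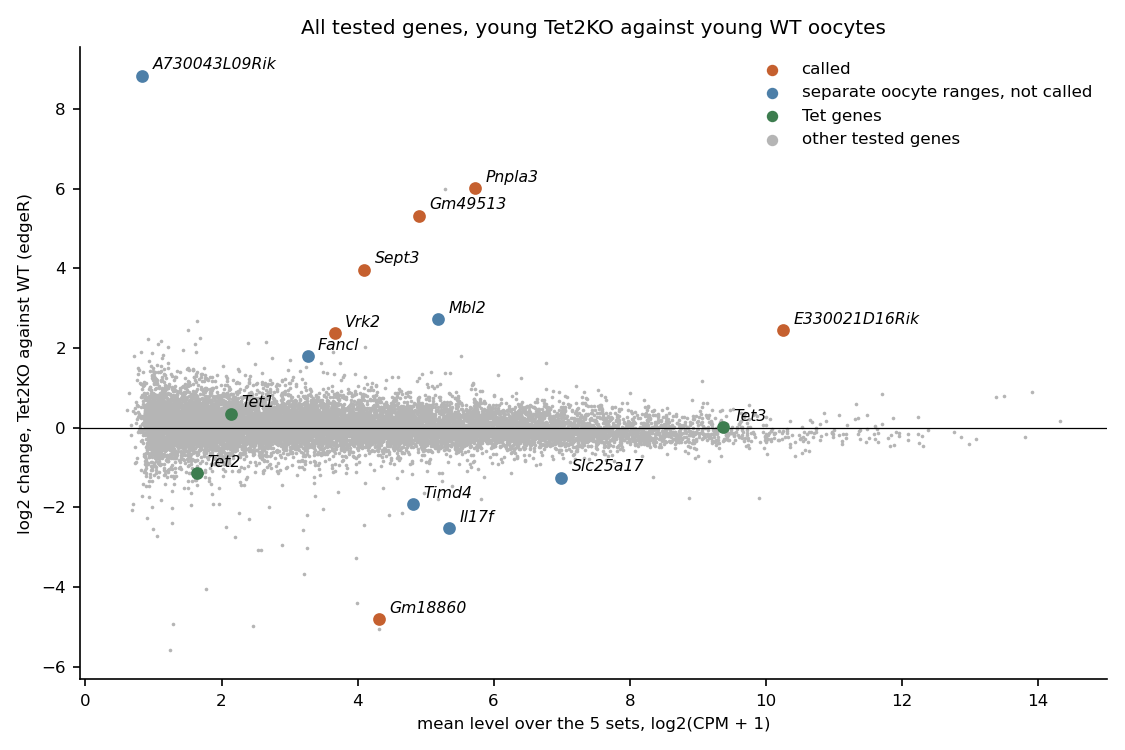
Each point is 1 of 13455 tested genes, placed by its mean level over the 5 sets, log2(CPM + 1), and by its log2 change in Tet2KO against WT from edgeR. The 6 called genes lie at log2 changes of 2.37 to 6.01 and at -4.81, Tet2 lies at -1.15, and most other genes lie close to 0.

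Promoter sequences of the called genes are shown because CG dinucleotides are where mammalian DNA methylation, the substrate of TET enzymes, sits. Entries of RefSeq's table (build GRCm38.p6) were matched to 3 of the 6 called genes, and none was matched to Sept3, Gm18860 or Gm49513. The 250 bases before each gene's start in RefSeq follow, 5′ to 3′ on the gene's strand, with every CG in capitals. They lie at chr15:84167566-84167815 (Pnpla3, plus strand), chr6:136415570-136415819 (E330021D16Rik, minus strand) and chr11:26593921-26594170 (Vrk2, minus strand). RefSeq's start of Vrk2 lies inside the span of the gene model used for the counts, so part of its stretch falls within that span.
Pnpla3: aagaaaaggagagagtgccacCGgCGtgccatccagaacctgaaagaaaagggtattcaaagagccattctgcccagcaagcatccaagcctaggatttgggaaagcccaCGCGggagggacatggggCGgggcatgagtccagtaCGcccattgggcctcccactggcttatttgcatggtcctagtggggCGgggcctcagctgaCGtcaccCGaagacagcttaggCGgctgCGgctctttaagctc
E330021D16Rik: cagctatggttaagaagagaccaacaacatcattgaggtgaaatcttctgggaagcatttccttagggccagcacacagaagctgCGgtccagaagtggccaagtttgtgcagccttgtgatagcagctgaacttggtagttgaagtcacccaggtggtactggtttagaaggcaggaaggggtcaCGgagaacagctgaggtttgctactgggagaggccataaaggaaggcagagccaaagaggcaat
Vrk2: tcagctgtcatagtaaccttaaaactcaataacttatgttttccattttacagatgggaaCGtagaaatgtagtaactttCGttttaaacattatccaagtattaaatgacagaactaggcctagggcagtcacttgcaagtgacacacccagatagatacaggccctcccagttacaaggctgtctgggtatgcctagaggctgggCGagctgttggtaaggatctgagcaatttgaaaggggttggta
The Pnpla3 stretch held 11 CG, that of Vrk2 3 and that of E330021D16Rik 2. Over 32851 promoters of this length the median was 6, and 92.1% held at least 1. Of those promoters, 64.4% had fewer CG than Pnpla3, 29.03% fewer than Vrk2 and 18.8% fewer than E330021D16Rik. Methylation was not measured in these samples.

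Pnpla3 encodes an acyl hydrolase that sits on lipid droplets. Its exons lie on mm10 chromosome 15 between 84167837 and 84187236. In the 24 WT oocytes its level ran from 0.672 to 4.24 CPM with a median of 1.67, and in the 16 Tet2KO oocytes from 98.2 to 171.5 with a median of 125.7. The lowest Tet2KO oocyte was thus far above the highest WT oocyte, and the sets within a genotype were alike: 1.71, 2.05 and 2.02 CPM in T148, T211 and T231, and 126 and 129 in T213 and T214. Means over sets were 1.92 ± 0.186 CPM in WT (SD, n = 3) and 127.5 ± 2.09 in Tet2KO (n = 2). That is a rise of 66.3-fold, or 6.01 on the log2 scale (SE 0.19, adjusted p = 0.000111). This call held in all 14 alternative fits and subsets, with log2 changes of 5.68 to 6.05.

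Gm49513 is a processed-transcript model (chromosome 15, 84181914 to 84195881) on the same strand as Pnpla3. It ran from 0 to 4.40 CPM in WT oocytes with a median of 1.88, and from 51.0 to 85.3 with a median of 67.4 in Tet2KO, again without overlap. Means over sets were 1.70 ± 0.179 CPM in WT and 69.5 ± 0.931 in Tet2KO, and the log2 change was 5.32 (SE 0.20, adjusted p = 0.000224). Of its 303 exon bases, 105 are shared with Pnpla3 and 111 with Samm50, a component of the mitochondrial outer membrane sorting machinery, which stood at 7.23 CPM in WT and 11.4 in Tet2KO. The counting gave reads in an overlap to every gene there, so Pnpla3 and Gm49513 cannot be told apart in full.

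E330021D16Rik, a protein-coding gene model on chromosome 6 (136400317 to 136415569), was the most abundant of the called genes per length of exon, at 235.6 CPM per kilobase in WT and 1310 in Tet2KO. WT oocytes held 314.8 to 547.7 CPM with a median of 436.4, and Tet2KO oocytes 1882 to 3092 with a median of 2321. All 3 WT sets lay between 417 and 458 CPM, and the Tet2KO sets at 2492 and 2307. With set means of 431.6 ± 22.6 and 2399 ± 131 CPM, the rise was 5.56-fold, and its log2 size 2.44 (SE 0.12, adjusted p = 0.000942).

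Sept3 encodes a septin, a GTP-binding protein that assembles into filaments and is best known from neurons (chromosome 15, 82274893 to 82294574). Its WT oocytes ran from 0 to 5.37 CPM, median 2.15, and its Tet2KO oocytes from 19.2 to 61.96, median 34.5. Set T214 was the higher of the Tet2KO sets, at 42.4 CPM against 31.1 in T213, and every oocyte of both was above all WT oocytes. Set means of 2.30 ± 0.826 CPM in WT and 36.8 ± 8.01 in Tet2KO make a rise of 16.02-fold, in log2 terms 3.97 (SE 0.34, adjusted p = 0.0253).

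Vrk2 encodes a membrane-anchored serine/threonine kinase of the vaccinia-related kinase family (chromosome 11, 26471322 to 26593999, minus strand). WT oocytes ran from 1.65 to 6.96 CPM, median 3.83, and Tet2KO oocytes from 12.9 to 38.02, median 23.1. No Tet2KO oocyte reached down to the WT range. The set means, 4.30 ± 0.697 and 22.7 ± 0.448 CPM, differ 5.29-fold, a log2 rise of 2.37 (SE 0.22, adjusted p = 0.0276). Its neighbour on the other strand, Fancl, shares 462 exon bases with it, 7.01% of Vrk2 and 13.7% of Fancl. Strand was not used in the counting, so a signal in that stretch counts for both genes.

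Gm18860, a processed pseudogene on chromosome 8 (71704205 to 71704968), was the called gene that fell. WT oocytes held 19.2 to 59.3 CPM with a median of 25.6, Tet2KO oocytes 0.255 to 1.89 with a median of 1.16. Set T148 was the higher of the WT sets, at 44.1 CPM against 24.6 and 23.6. Means over sets were 30.8 ± 11.5 CPM in WT and 1.12 ± 0.259 in Tet2KO, 27.6-fold lower, and the log2 change was -4.81 (SE 0.43, adjusted p = 0.0272). A processed pseudogene can share reads with the gene it was copied from, and its counts are uncertain to that extent.

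Leaving out 1 set decided 3 of these calls, and adding the other sets of the series decided E330021D16Rik as well. Without T213 the count of called genes was 3, without T214 it was also 3, and without T231 it was 4. Sept3 and Vrk2 lost their calls without T148, T231, T213 or T214 (adjusted p of 0.0612 to 0.449 for Sept3, 0.0637 to 0.449 for Vrk2), and Gm18860 without T231, T213 or T214 (0.0668 to 0.79). Without T211 the count was 21, with all 6 among them. In a fit of all 13 sets of the series with a term for the way sets are named, Pnpla3 and Gm49513 were the genes called, and E330021D16Rik (adjusted p = 0.822), Gm18860 (0.822), Vrk2 (0.822) and Sept3 (0.514) were not.

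**Figure D2:**
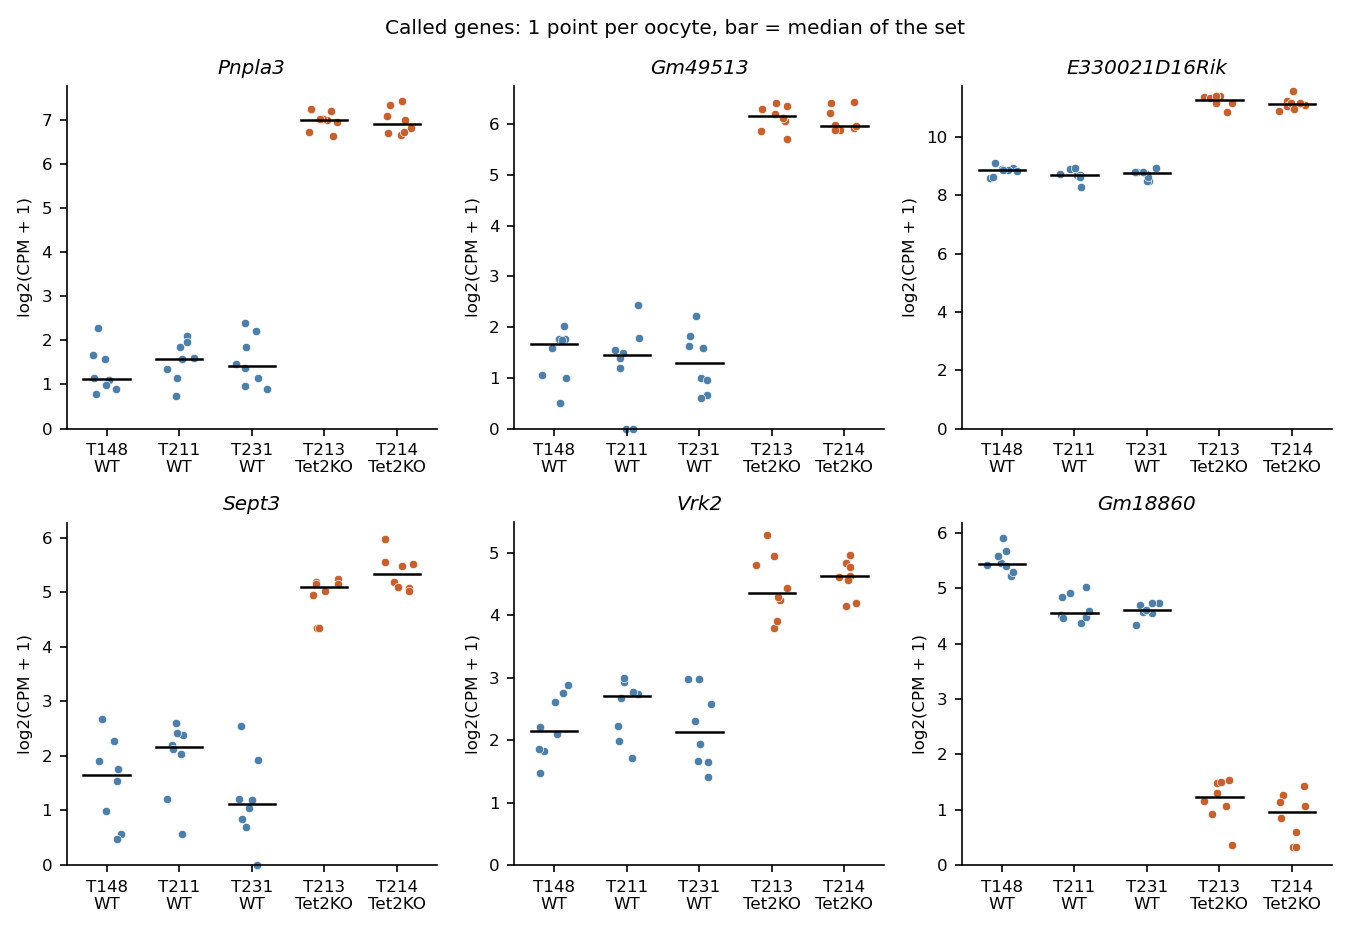
Level of each called gene in single oocytes, log2(CPM + 1) on the vertical axis, by set on the horizontal axis. Each point is 1 oocyte and each bar the median of the 8 oocytes of a set. WT sets are blue and Tet2KO sets orange, and in every panel the orange points lie wholly above the blue ones, or below them for Gm18860.

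Ranges of single oocytes were then compared gene by gene. In 12 of 12972 genes (0.0925%) with a median of at least 1 CPM in the higher group the 16 Tet2KO and the 24 WT oocytes did not overlap, 8 with higher Tet2KO values (0.0617%) and 4 with lower (0.0308%). These 12 comprise the 6 called genes and another 6 that did not pass the edgeR test: Fancl, Mbl2, A730043L09Rik, Slc25a17, Timd4 and Il17f. Oocytes of 1 set are not independent of each other, so this count describes the cells and carries no p-value.

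Fancl encodes the ubiquitin ligase of the Fanconi anaemia core complex, which acts in the repair of DNA crosslinks. It ran from 1.27 to 7.07 CPM in WT oocytes, median 4.34, and from 7.57 to 25.9 in Tet2KO, median 14.8. Its set means were 4.27 ± 0.401 and 15.1 ± 0.312 CPM (log2 change 1.79, adjusted p = 0.0839), with the exon overlap with Vrk2 given above. Mbl2 encodes a mannose-binding lectin, a secreted activator of complement best known from the liver. It ran from 5.89 to 23.3 CPM in WT oocytes, median 10.7, and from 42.3 to 104.2 in Tet2KO, median 73.8. Set T214 was higher than T213, 90.4 against 53.5 CPM, and the log2 change was 2.72 (adjusted p = 0.0839).

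A730043L09Rik is a long intergenic noncoding RNA on chromosome 9 (62242596 to 62244100), named here because its ranges were separate and so chosen after its values were seen. It had no count in any of the 24 WT oocytes and 135 counts over the 16 Tet2KO oocytes, where it ran from 0.551 to 3.46 CPM with a median of 2.07. With 3 counts over these 24 WT oocytes put in place of 0, the pooled level in Tet2KO was 52.3-fold higher. That figure allows for counting error in WT alone and not for the spread between sets (edgeR adjusted p = 0.336). In the old WT set Old_WT_247 the gene stood at 1.78 CPM. It shares 168 exon bases with Gm47262 on the other strand, which was also at 0 in WT.

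Lower in every Tet2KO oocyte were Slc25a17, Timd4 and Il17f. Slc25a17, a carrier of cofactors in the peroxisomal membrane, held 119.5 to 220 CPM in WT oocytes, median 160.6, and 42.5 to 105.8 in Tet2KO, median 70.6 (log2 change -1.25, adjusted p = 0.105). Timd4, a receptor for phosphatidylserine known from macrophages, held 21.1 to 76.7 CPM in WT, median 36.4, and 6.26 to 15.4 in Tet2KO, median 9.59 (log2 change -1.92, adjusted p = 0.434). Il17f, a cytokine of the interleukin 17 family, held 16.8 to 103.8 CPM in WT, median 66.6, and 5.12 to 15.6 in Tet2KO, median 10.7 (log2 change -2.52, adjusted p = 0.665). The WT sets were unequal for Il17f: T231 stood at 23.3 CPM, T148 at 74.3 and T211 at 79.8. Without T231 its adjusted p was 0.0367. The summed macrophage and leukocyte markers overlapped between the genotypes, as given above, while Timd4 did not. Whether the level of Timd4 goes with these markers was not tested.

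**Figure D3:**
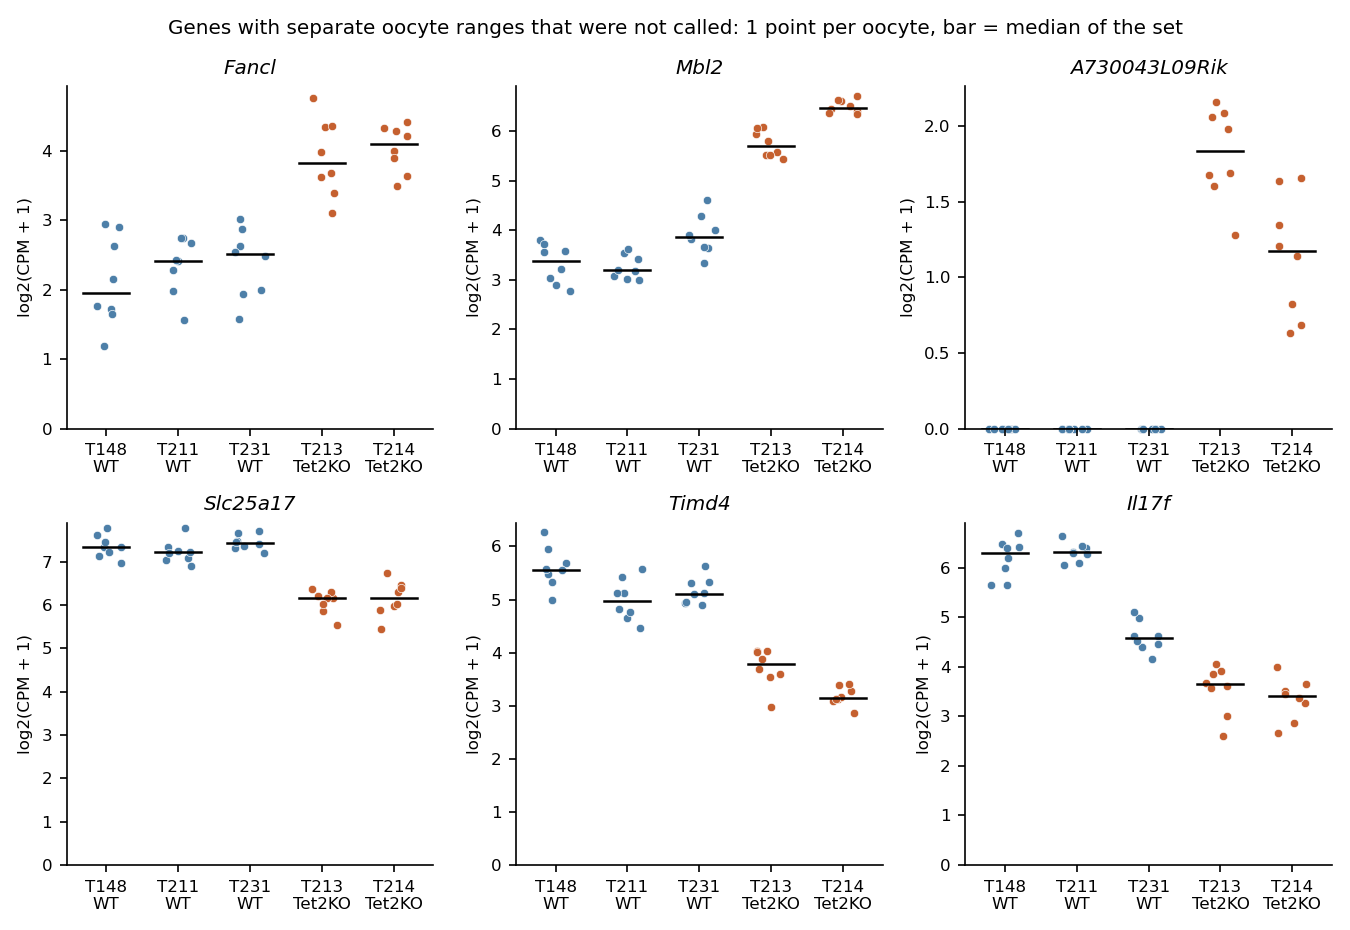
Level in single oocytes, log2(CPM + 1), of the 6 genes whose oocyte ranges were separate but which did not pass the test, by set. Points, bars and colours are as in the plot of called genes. Oocytes of T213 and T214 are also separate for Mbl2, and those of T231 and the other WT sets for Il17f.

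Tet2 was still counted in the oocytes labelled knockout. Its counts per oocyte were 1 to 13 in Tet2KO and 1 to 30 in WT, and no oocyte of either genotype was at 0. Summed over the 16 Tet2KO oocytes there were 84 counts, which after scaling to the totals is 45.8% of the level in the 24 WT oocytes (95% interval 35.2% to 59.3%, exact Clopper-Pearson, counting error only). WT oocytes ran from 0.358 to 5.95 CPM with a median of 2.28 and Tet2KO oocytes from 0.223 to 3.83 with a median of 1.01, so the ranges overlapped. The set mean stood at 2.70 ± 0.487 CPM in WT and 1.24 ± 0.0836 in Tet2KO (log2 change -1.15, SE 0.33, adjusted p = 0.665). The value is a sum over all exons of the gene (chromosome 3, 133463679 to 133545139, minus strand), and reads outside the deleted part, which the sources used here do not give, check nothing.

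The other Tet genes did not pass the test. Tet3 stood at 653.6 ± 28.9 CPM in WT and 674.2 ± 102.6 in Tet2KO (log2 change 0.01, adjusted p = 0.988). Per kilobase of exon, Tet3 was at 39.1 CPM in WT, against 0.160 for Tet2 and 0.196 for Tet1. Tet1 stood at 3.02 ± 1.44 and 3.95 ± 0.131 CPM (log2 change 0.35, adjusted p = 0.814), with 0 to 7.73 CPM in WT oocytes and 1.04 to 7.68 in Tet2KO. No other member of the DNA methylation list passed either, in edgeR, DESeq2 or limma: of 23 tested, 11 had higher and 12 lower values in Tet2KO, with a median log2 change of -0.13. Uhrf1, which brings the maintenance methyltransferase to replicating DNA, was at 339.8 ± 54.1 and 266.1 ± 47.4 CPM, and Hells, a chromatin remodeller needed for methylation of repeats, at 198.5 ± 33.3 and 162.5 ± 8.88.

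The 12 genes were followed in the remaining sets of the series, of which those with numbers for names come from another count table. Each oocyte was placed on the Tet2KO side if it lay at or beyond the Tet2KO value nearest to WT, and on the WT side likewise. For 9 of the 12 genes at least 1 of the 26 other WT oocytes lay on the Tet2KO side, and for Pnpla3, Gm49513 and Timd4 none did. E330021D16Rik was on the Tet2KO side in 22 of the 26, and none of the 54 other oocytes was on its WT side. Vrk2 and Fancl were on the Tet2KO side in all 7 oocytes of the old WT set Old_WT_247, as were Sept3 and A730043L09Rik. In that set Gm18860 stood at 1.64 CPM.

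In the 7 old Tet2KO oocytes (set S161) the genes went separate ways. Pnpla3 was at 2.13 CPM, with 7 of 7 oocytes on the WT side, and Gm49513, Sept3, Slc25a17 and Il17f were on the WT side in 7 of 7 too. E330021D16Rik was on the Tet2KO side in 7 of 7, and Vrk2, Fancl and Mbl2 in 6 of 7. Among 21 Tet1KO oocytes, young and old, Pnpla3 was on the Tet2KO side in 14 and Gm49513 in 12. These oocytes differ from the young Tet2KO ones in age, in genotype or in table, and how far each goes with the level was not tested.

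**Figure D4:**
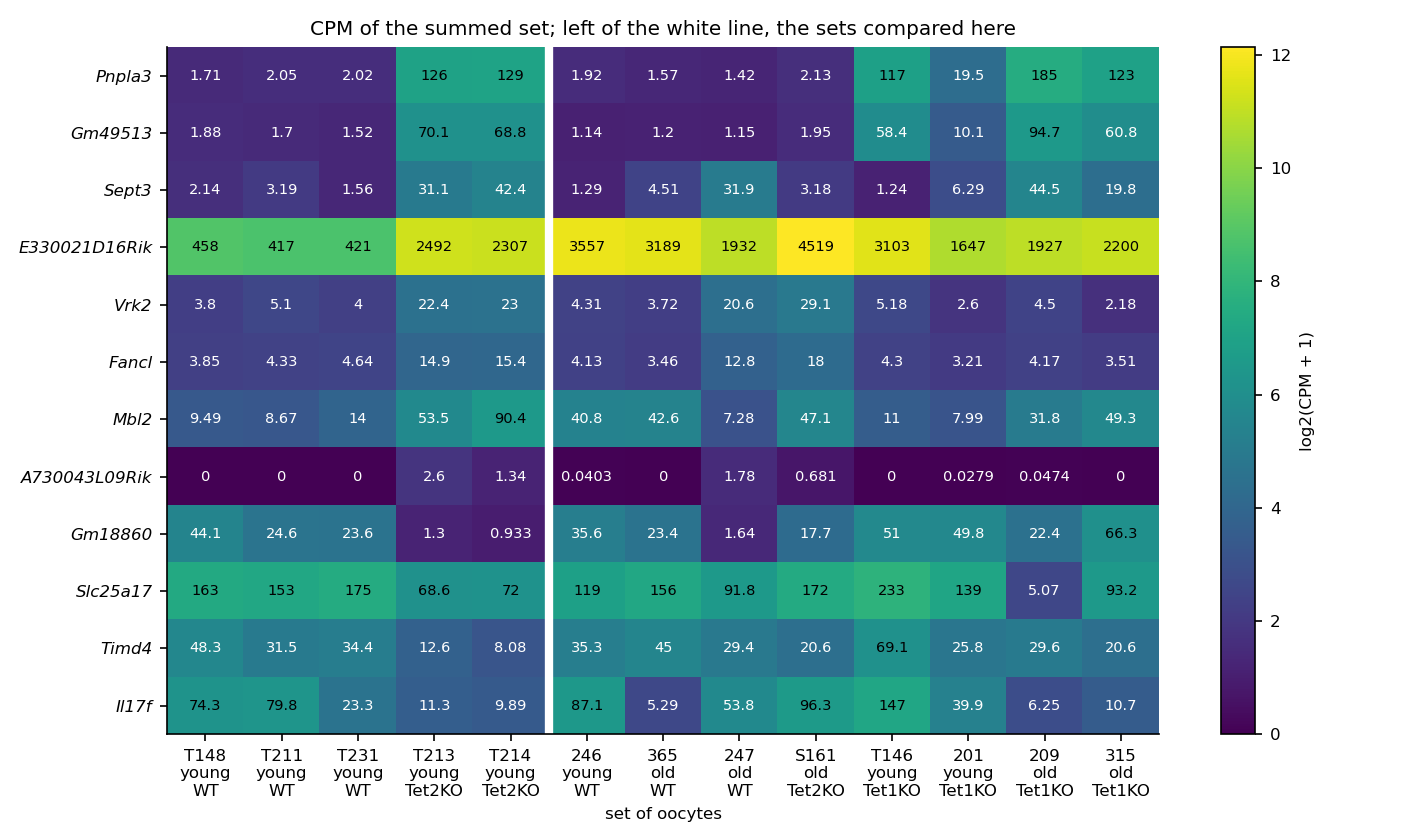
Level of the 12 genes (rows) in each of the 13 sets (columns), as CPM of the summed set in numbers and log2(CPM + 1) in colour. Left of the white line are the 5 sets compared here. E330021D16Rik is at 417 to 458 CPM in the WT sets to the left and at 1647 or more in every set to the right, and Pnpla3 is at 117 CPM or more in T213, T214, T146, Old_Tet1-/-_209 and Old_Tet1-/-_315. The 19.5 CPM of Pnpla3 in set Young_Tet1-/-_201 rest on 1 of its 7 oocytes, since the median there is 1.88.

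By position, 4 of the 12 genes lie on chromosome 15, which holds 3.84% of the tested genes: Slc25a17, Sept3, Pnpla3 and Gm49513. Sept3 is 0.914 megabases from Slc25a17 and 1.87 from Pnpla3. Another 3, Vrk2, Fancl and Timd4, lie on chromosome 11, which holds 6.86% of the tested genes. Vrk2 and Fancl share exon bases and so counts, and Timd4 is 20.2 megabases from Vrk2. Within 1 megabase of Pnpla3, 23 other genes were tested and 1, Gm49513, was called. At an unadjusted p under 0.05, 3 of these 23 had higher and 3 lower values (26.1%, against 7.02% of all genes). Gm49513, 1 of the 3 higher, shares exon bases and so counts with Pnpla3. The window was centred on Pnpla3 after its values were seen, so this share is no test of the region. Among the 3 lower was Pacsin2, a membrane-bending protein named after its values were seen. It stood at 514.3 ± 63.6 CPM in WT and 348.5 ± 36.02 in Tet2KO (log2 change -0.60, edgeR adjusted p = 0.665). Within 10 megabases of Tet2 none of 79 genes was called in edgeR or in limma on set sums. DESeq2 called 1 of them, Lrit3, and 0.312% of all genes. Limma on single oocytes called 6 of the 79, and 3.33% of all genes. EdgeR without a filter on low genes also called 6 of the 79, and 331 of 29403 genes in all. Of these 79 genes 40 had higher and 39 lower values, with a median log2 change of 0.01, and 3 each way had an unadjusted p under 0.05 (7.59%).

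The gene lists are given by the roles of their members. Across all 19, the median log2 changes lay between -0.17 and 0.28, against 0.00 for all genes, and Pnpla3 was the 1 member called in edgeR, in DESeq2 and in limma on set sums. Limma on single oocytes, which takes the oocytes of a set as correlated replicates, called 16 members, and it called 3.33% of all tested genes. Of 15 tested triglyceride lipases and PNPLA relatives, 8 had higher and 7 lower values (median 0.09), and 2 each way had an unadjusted p under 0.05 (26.7%, against 7.02% of all genes). Pnpla3 is 1 of the 2 higher ones. The list was chosen with earlier results of these data known, so this share is no test of the family. Ddhd1, a phospholipase, stood at 121.2 ± 27.1 CPM in WT and 76.5 ± 18.04 in Tet2KO, and Abhd12, a lysophospholipase, at 10.6 ± 0.975 and 15.99 ± 2.71 (adjusted p = 0.665 for each). Among 18 genes of the lipid droplet coat and of triglyceride synthesis, 4 had higher and 14 lower values (median -0.17), with none called in edgeR and none at an unadjusted p under 0.05, while limma on single oocytes called Gpat3. Lpin2, a phosphatidate phosphatase, was at 237.3 ± 41.4 CPM in WT and 316.2 ± 3.70 in Tet2KO, Plin3, a droplet coat protein, at 51.3 ± 3.63 and 38.3 ± 14.03, and Dgat2, which makes triglyceride, at 98.2 ± 29.7 and 70.5 ± 5.21. In 19 genes of fatty acid oxidation and its regulators the median was 0.19, with 12 higher and 7 lower values.

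No gene of the egg-specific list passed the edgeR test, DESeq2 or limma on set sums. Limma on single oocytes, with oocytes and not sets as replicates, called Npm2, Ooep and Nlrp2, where it called 3.33% of all tested genes. EdgeR without a filter on low genes called Ooep, Nlrp2 and Astl, an egg protease, among 331 of 29403 genes. Of 27 zona pellucida, oocyte factor and subcortical maternal complex genes, 10 had higher and 17 lower values in Tet2KO (median -0.03), 3 of them at an unadjusted p under 0.05 (11.1%, against 7.02% of all genes). Npm2, the nucleoplasmin of the egg that acts on sperm chromatin, stood at 202.9 ± 4.40 CPM in WT and 316.4 ± 31.8 in Tet2KO (log2 change 0.61, SE 0.13, adjusted p = 0.665). Ooep, of the subcortical maternal complex, ran from 114.8 to 890.4 CPM in WT oocytes, median 235.7, and from 516.9 to 1197 in Tet2KO, median 841.9. These ranges overlap, and the set means were 353.6 ± 126.8 and 808.1 ± 222.7 CPM (log2 change 1.17, SE 0.32, adjusted p = 0.665). Nlrp2, of the same complex, was at 112.9 ± 32.98 and 68.1 ± 19.5 CPM. In mRNA storage and decay, 14 of 25 genes had higher and 11 lower values (median 0.01).

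In metaphase II arrest, 12 of 29 genes had higher and 17 lower values (median -0.10), 2 and 3 of them at an unadjusted p under 0.05 (17.2%, against 7.02% of all genes). Cdc25a, a phosphatase that activates cyclin-dependent kinases, was at 8.92 ± 1.67 CPM in WT and 16.7 ± 3.39 in Tet2KO. Wee1, a kinase that restrains CDK1, was at 2.22 ± 0.389 and 4.44 ± 1.68, and Plk1, a kinase of cell division, at 398.4 ± 14.3 and 307 ± 45.3. For these 3 genes the adjusted p was 0.665 in edgeR. Limma on single oocytes, which called 3.33% of all tested genes, called Cdc25a, Plk1 and the cyclin genes Ccnb1 and Ccnb2. Among 28 spindle checkpoint and kinetochore genes, 9 had higher and 19 lower values (median -0.16). Kifc1, a minus-end-directed kinesin of the spindle, stood at 4.70 ± 0.996 and 2.25 ± 0.852 CPM, Kif2c, a microtubule-depolymerising kinesin, at 89.2 ± 6.39 and 66.1 ± 6.202, and Cenpf of the kinetochore at 264 ± 16.6 and 364.6 ± 32.2. Cohesin and meiotic axis genes had a median of 0.08 over 22 genes.

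Among 29 DNA damage and repair genes, 16 had higher and 13 lower values (median 0.07), with 4 and 1 at an unadjusted p under 0.05 (17.2%, against 7.02% of all genes). Brca2, which loads the recombinase in homologous recombination, was at 259.1 ± 12.6 CPM in WT and 381.4 ± 91.4 in Tet2KO. Dmc1, the recombinase of meiosis, was at 11.9 ± 4.08 and 6.335 ± 0.4297, and Xrcc5, which binds broken ends, at 11.97 ± 2.08 and 21.5 ± 7.73. Of 29 histone modifiers, 15 had higher and 14 lower values (median 0.01). Eed, of Polycomb complex 2, stood at 220.7 ± 31.9 and 161.2 ± 17.7 CPM, and the acetyltransferase gene Ep300 at 24.03 ± 1.897 and 35.2 ± 7.05. The adjusted p was 0.665 for all of these in edgeR. Limma on single oocytes, which called 3.33% of all tested genes, called Brca2, Dmc1, Xrcc5 and Nbn, which senses DNA breaks, and no histone modifier.

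Lists tied to DNA methylation gave no called member in edgeR, DESeq2 or limma on set sums. Limma on single oocytes, which called 3.33% of all tested genes, called 1, Copg2. Germline genes that are silenced by promoter methylation in somatic cells had a median of -0.01 over 18 tested genes, 8 higher and 10 lower, with none at an unadjusted p under 0.05. Imprinted genes had a median of -0.08 over 18, 7 higher and 11 lower. Copg2, an imprinted coat protein gene, was at 270.02 ± 28.2 CPM in WT and 187.1 ± 62.7 in Tet2KO. Airn, a noncoding RNA that runs antisense through Igf2r, was at 1.53 ± 0.496 and 2.65 ± 0.598 CPM, and Igf2r, the receptor that clears insulin-like growth factor 2, at 22.4 ± 7.71 and 15.3 ± 0.621. Without strand, reads where Airn and Igf2r overlap cannot be told apart. Partners of TET2 and enzymes that supply 2-oxoglutarate had a median of -0.11 over 15 genes, 6 higher and 9 lower.

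All 13 protein-coding genes of the mitochondrial genome had higher values in Tet2KO, with a median log2 change of 0.28. This was also so with RLE size factors and with library size alone, while without set T213 the values of 9 of the 13 were higher. None was called by edgeR, DESeq2 or limma, and in edgeR none had an unadjusted p under 0.05. As a share of the counts these 13 made up 0.948% to 1.92% in WT oocytes, median 1.24%, and 1.04% to 2.44% in Tet2KO, median 1.62%. Over set medians this was 1.26% ± 0.184 (n = 3) and 1.59% ± 0.216 (n = 2), with p = 0.4 in a two-sided exact permutation test that cannot go below 0.2 in this design. Nuclear genes of mitochondrial transcription, replication and dynamics had a median of 0.20 over 21 genes, 14 higher and 7 lower. Pink1, a kinase of mitophagy, was at 0.716 ± 0.426 CPM in WT and 2.23 ± 0.318 in Tet2KO (adjusted p = 0.665). Antioxidant enzymes had a median of 0.04 over 20 genes. Cleavage-stage genes had a median of 0.14 over 8, and cytokine and interferon response genes 0.08 over 10.

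**Figure D5:**
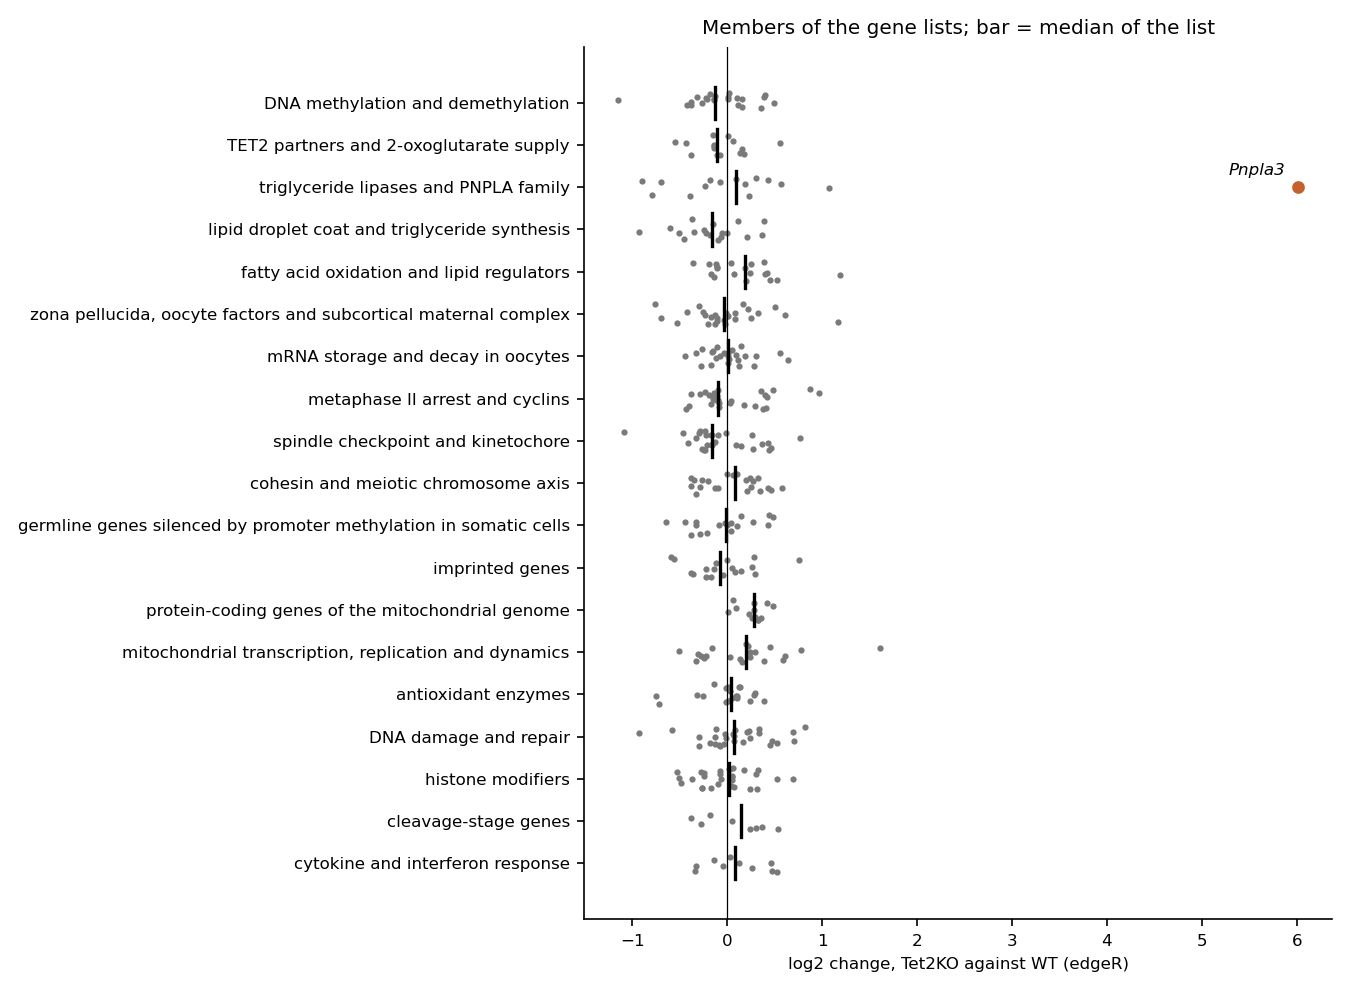
Log2 change in Tet2KO against WT from edgeR (horizontal axis) of each tested member of the 19 gene lists (rows). Each point is a gene and each bar the median of its list. The medians lie between -0.17 and 0.28, and Pnpla3, at 6.01, is the 1 called member.

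Genes detected numbered 16839 to 18414 in Tet2KO oocytes, with a median of 17430, and 15580 to 18228 in WT oocytes, with a median of 16570. Set medians averaged 17485 ± 78.1 (n = 2) and 16545 ± 424 (n = 3), and the exact permutation test gave p = 0.2, the smallest value it can give here. The median depth was higher in Tet2KO too, as given above. With each oocyte thinned to 2000000 counts, which left none out, the set medians averaged 15910 ± 17.7 and 15556 ± 85.1 (p = 0.2, exact permutation test).

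Sets were also compared in pairs, within and between genotypes. Across the 13455 tested genes, Pearson's correlation of log2(CPM + 1) between oocytes had a median of 0.963 within a set, 0.942 between sets of the same genotype and 0.943 between genotypes. Comparing 8 oocytes with 8, genes without overlap numbered 444 to 734 between pairs of WT sets (3.43% to 5.70% of genes compared). They numbered 332 between the Tet2KO sets (2.54%), and 240 to 963 between a Tet2KO and a WT set (1.85% to 7.39%). Of the 43 genes with a log2 change of at least 2 in size that were not called, several were high in some sets of a genotype and not in others. Cdc5l, a splicing factor, stood at 183 CPM in T214 and 2.18 in T213, against 0.416 to 3.29 in the WT sets. Btla, a receptor of lymphocytes, was at 71.2 CPM in T148 and at 0.373 to 1.98 in the other 4 sets. Pak3, a kinase, was at 11.2 CPM in T148 and 10.8 in T231, but at 0.104 in T211. These 3 were chosen after their values were seen.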

How the data were processed

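RNA of single MII oocytes was sequenced, and the deposited tables of counts were used as they stood. Per the file headers, the authors counted fragments per gene with featureCounts (version 1.6.2). The annotation was GENCODE release 17 for mouse, a mapping quality of at least 30 was asked for, strand was not used, and fragments that map several times or lie in several genes were kept. HISAT2 and SAMtools, without versions, and the mm10 build are named in the submitters' processing notes. Columns were matched to oocytes by name, and 39 columns with no matching label were not used. The table of primordial germ cells was not used here. Of 53715 gene identifiers, 95 had no symbol.

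Counts of the 8 oocytes of a set were summed, and the set was the replicate. Total counts per oocyte were 2354503 to 6374555. Genes with at least 1 CPM in at least 2 of the 5 sets were tested with edgeR 4.0.16 in R 4.3.3 (TMM scaling, quasi-likelihood test, 3 residual degrees of freedom, common biological coefficient of variation 0.281). DESeq2 1.42.0 and limma 3.58.1 were alternatives. P-values were adjusted by Benjamini-Hochberg over all tested genes. Ranges of single oocytes used CPM without TMM. The 140 pairs of oocytes within sets all differed beyond counting noise (chi-square per degree of freedom of 4.46 or more). The test was tried on simulated counts. Replicate numbers are not shared between the genotypes, so no pairing was used.

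The comparison, the gene lists and the tests were chosen with earlier results of these data known. Genes named are the Tet genes, called genes, genes with separate oocyte ranges, and members of smallest p in each list. Genes near Pnpla3 and Tet2 are named as the text says. Sequences are from RefSeq, GRCm38.p6.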

Additional observations from a re-analysis of the deposited data

Results flagged for a closer look

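Within each set of 8 oocytes, the highest and lowest values of 20 measures were checked for an oocyte far from its neighbours. Of 100 such checks 10 found one, in each case the highest oocyte of its set. How many chance alone would give was not tested. In T148, oocyte T1488 had a mitochondrial share of 1.66% (the next at 1.27%), T1482 had 3.87 CPM of Pnpla3 (next 2.16), and T1481 had 37.9 CPM of summed macrophage and leukocyte markers (next 30.3). In T211, oocyte T2118 had 220 CPM of Slc25a17 (next 162.3), and in T231, oocyte T2311 detected 18228 genes (next 16901). In T213, oocyte T2136 had 210 CPM of summed stroma, theca and oviduct markers (next 163.9). In T214, oocyte T2141 had a total of 5696921 counts (next 4165675) and 61.96 CPM of Sept3 (next 45.6), T2145 had 3092 CPM of E330021D16Rik (next 2420), and T2143 had 1.88 CPM of summed red blood cell markers (next 0.521). The 12 genes with separate ranges were chosen over all oocytes, these included, so none of these oocytes could close the gap in them.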

How the results depend on the processing

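The count of called genes was 6 in edgeR and also 6 with RLE size factors, with library size alone, with a minimum of 10 CPM, with limma on set sums and with the young Tet1KO set T146 added to the fit, and the same 6 genes were called in each. It was 42 with DESeq2, 331 of 29403 genes without a filter, and 448 with limma on single oocytes (correlation within a set 0.184), each time including those 6. With all 13 sets and a term for the naming it was 2, Pnpla3 and Gm49513. Leaving out 1 set at a time gave 3 to 21. Among the 13455 tested genes, those with separate oocyte ranges numbered 12, and 11 with TMM scaling or with a median of at least 5 CPM. With 1 set left out, where fewer oocytes are compared, they numbered 16 to 89. Detected genes stayed higher in Tet2KO by 719 to 1142 with 1 set left out, and the mitochondrial share by 0.176 to 0.481 percentage points. Of 950 values for named genes, 3 changed sign, all of Tet3: -0.0017 with all 13 sets, -0.15 without T213 and -0.017 without T231, with leave-one-out values of -0.15 to 0.16. Across library size alone and 1 set left out at a time, 7 of the 19 list medians kept their sign and 12 took the other sign in at least 1. No paired analysis was possible because the genotypes share no replicate numbers.

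With 3 sets against 2, an exact permutation test of set values cannot pass 0.05. Genotype is confounded with whatever else differed between sets, and these cannot be told apart where only these 5 sets are used. The labels do not say what else differed. Low genes rest on few counts, such as Tet2 with 84 counts over 16 oocytes.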
